A study of Saccharomyces cerevisiae BY4741 with 6 samples.

Results

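The histone genes of budding yeast are described here across growth in glucose and the shift to galactose, in strains with and without SPP1. The members were chosen by systematic name and were the 8 core histone genes (HTA1, HTB1, HTA2, HTB2, HHT1, HHF1, HHT2 and HHF2), the H2A.Z variant gene HTZ1 and the linker histone gene HHO1. All 10 were found among the 5219 genes of the count table. The assay was NET-seq (native elongating transcript sequencing), which reads the RNA still held by purified RNA polymerase II, so that the counts follow transcription in progress rather than stored mRNA. The libraries came from log-phase BY4741 cultures that carry RPB3-3xFLAG, a tagged polymerase subunit, in both strains. The wild type (RPB3-3xFLAG-His3MX6) had no other change, and the deletion strain also carried spp1::KanMX6. Each strain was harvested in YPD glucose medium and at 15 and 60 min after it had been spun down and moved to YPG galactose medium, with 1 library for each of these 6 groups. The labels describe no spin for the glucose cultures, so that handling and medium cannot be told apart.

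Nucleosomes hold 2 copies each of H2A, H2B, H3 and H4, and yeast makes each core histone from a pair of paralogous genes. The genes lie as divergent pairs, 1 H2A gene beside an H2B gene or 1 H3 gene beside an H4 gene, transcribed away from a shared promoter region. Their transcription is known to be high in S phase, when DNA is copied, and low in the rest of the cycle. The HIR corepressor complex holds the pairs down outside S phase, except HTA2-HTB2, while Spt10 and Spt21 activate histone genes. SPP1 encodes a subunit of COMPASS, the enzyme complex that methylates lysine 4 of histone H3.

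Library totals over all genes ran from 1162190 to 4167249 counts, and the histone genes held between 0.368% and 0.819% of them. SPP1, which checks the strain labels, had 324, 69 and 131 counts in the wild type and 1, 0 and 0 in the deletion. The summed level of 4 markers of MATa cells (STE2, MFA1, MFA2 and AGA2) was between 1007 and 3011 CPM (counts scaled to equal library size), against 16.4 to 22.2 CPM for 2 markers of MATalpha cells (SAG1 and STE3). All 4 MATa markers fell at 15 min and rose by 60 min, and the pheromone gene MFA1 (log2 -0.72, adjusted p = 0.0190) and the agglutinin gene AGA2 (log2 -0.65, adjusted p = 0.0161) were lower in the deletion by the edgeR test described below; their part in the histone results was not tested. The labels do not say how many cultures or isolates lie behind a library. Changes below are relative to the rest of each library, since a change in total transcription leaves no trace in such counts.

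The core histone genes occupy 4 loci (R64 assembly, the sacCer3 build). HTA1 (YDR225W, chromosome IV, 915530 to 915928) and HTB1 (YDR224C, chromosome IV, 914317 to 914712) are separated by 817 bases. HTA2 (YBL003C, chromosome II, 235394 to 235792) and HTB2 (YBL002W, chromosome II, 236492 to 236887) are separated by 699 bases. On the same chromosome, HHT1 (YBR010W, 256331 to 256741), an H3 gene, lies 646 bases from the H4 gene HHF1 (YBR009C, 255373 to 255684). The other H3 and H4 genes, HHT2 (YNL031C, 575640 to 576050) and HHF2 (YNL030W, 576727 to 577038), lie on chromosome XIV with 676 bases between them. HTZ1 (YOL012C, chromosome XV, 303579 to 303983) and HHO1 (YPL127C, chromosome XVI, 308828 to 309604) stand alone. The paralogs of a histone have the same coding length, 399 bases for H2A, 396 for H2B, 411 for H3 and 312 for H4. No annotated gene overlaps any of the 10. How reads shared by similar paralogs were counted is not given in the sources used here, so each paralog's own level is less certain than the sum of both.

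In glucose, the core histone genes stood far above the typical gene. Levels are given as CPM per kilobase of coding length, with CPM taken on library totals scaled by the trimmed mean of M-values (TMM). The median histone gene reached 1371 in the wild type and 1363 in the deletion, against medians of 90.1 and 91.5 over all genes. HTA1 was the highest of the 10 in all 6 libraries and HHO1 the lowest. Among the core genes HHF1 was the lowest in glucose, at 978 in the wild type and 979.7 in the deletion. HTA1 kept between the 98.5 and 99.3 percentile of all genes by CPM per kilobase, and HHO1 between the 53.6 and 74.8 percentile. The order below HTA1 changed with time: HTA2 was the next gene in glucose and at 15 min, whereas at 60 min it came after HHT1, HHT2 and HTB1. In the middle of the glucose order, HTB1 and HTB2 differed by no more than their counting error in either strain, and HHT2 stood at 0.971 of the level of HHF2 in the wild type but at 0.762 in the deletion.

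**Figure D1:**
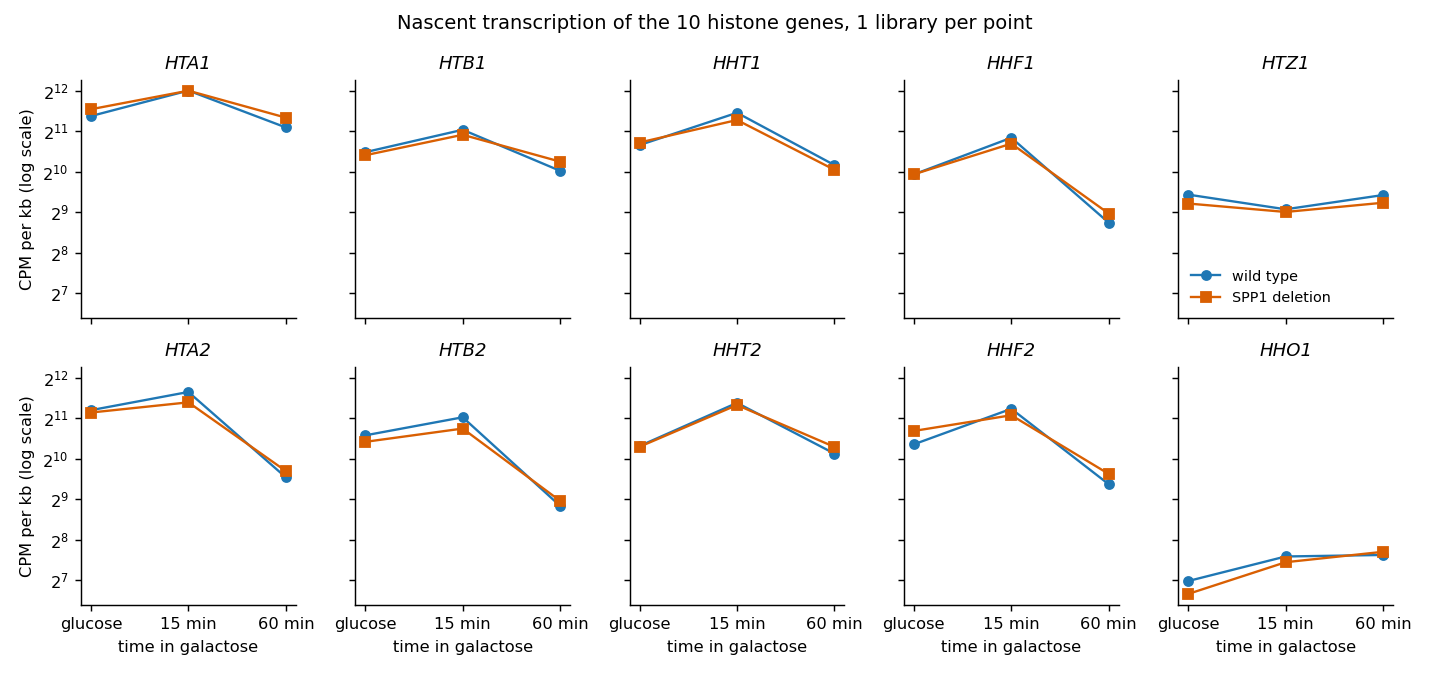
Level of each histone gene (CPM per kilobase of coding length, log axis) in glucose and at 15 and 60 min in galactose, at equal spacing, with 1 library per point; circles are the wild type and squares the SPP1 deletion. The 8 core genes peak at 15 min and are lowest at 60 min, apart from HHT2, which at 60 min is close to its glucose level, while HTZ1 dips slightly at 15 min and HHO1 stays higher after the shift.

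At 15 min after the shift to galactose, nascent transcription was above glucose in both strains for all 8 core histone genes. Of these, 7 passed the edgeR test given below. HTA2, which did not, went from 2353 and 2260.3 CPM per kilobase (wild type and deletion) to 3215 and 2692. HHT2 stood at 1273 and 1257 CPM per kilobase in glucose (wild type and deletion) and at 2668 and 2570.2 at 15 min. HHF1 moved from 978 and 979.7 to 1833 and 1657. In both genes each 15 min library lay well above both glucose libraries, and the strains lay close together. The fitted rise was 2.07-fold for HHT2 (log2 1.05 ± 0.17, adjusted p = 3.39e-05) and 1.78-fold for HHF1 (log2 0.83 ± 0.14, adjusted p = 7.83e-05). These come from edgeR's quasi-likelihood test with strain and condition as additive terms and Benjamini-Hochberg adjustment over 5186 genes. The value after ± is the log2 difference divided by the square root of the F statistic, which stands in for a standard error.

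The H3 gene HHT1 rose by 0.68 ± 0.17 on the log2 scale and the H4 gene HHF2 by 0.63 ± 0.17 (adjusted p = 0.00194 and 0.00271, same edgeR test). The fitted rises of the H2A and H2B genes were smaller, an order that was not tested and did not hold in the deletion by itself, where HHF2 stood at 0.39, HTA1 at 0.46 and HTB1 at 0.51. HTA1 went from 2656 and 2986 CPM per kilobase to 4114 and 4105, a rise of 0.55 ± 0.19 (adjusted p = 0.0155), and its partner HTB1 rose by 0.53 ± 0.17 (adjusted p = 0.00907). HTB2 rose by 0.39 ± 0.16 (adjusted p = 0.0401), and HTA2 did not pass the test, at 0.35 ± 0.18 (adjusted p = 0.0796). In all, 7 of the 8 core genes and HHO1 were called higher and no histone gene lower. The background was high, since 75.2% of all genes were called at 15 min, 37.1% higher and 38.1% lower, so a call by itself sets no histone gene apart. The median log2 difference was 0.59 over the 10 histone genes and -0.01 over all genes tested. By fitted difference, the core genes lay only between the 62.7 (HTA2) and 80.1 (HHT2) percentile of all genes tested. The calls of HHF1, HHT2 and HHO1 held in each of 14 alternative fits. The count of called members fell from 8 to 4 without the wild-type glucose or the wild-type 15 min library and to 5 without the deletion glucose library. HTA2 passed when either 60 min library was left out (adjusted p = 0.0160 without the wild-type and 0.0156 without the deletion library). HTB2 was also lost with library totals (adjusted p = 0.0834), upper-quartile factors (adjusted p = 0.154) or DESeq2 (adjusted p = 0.0571), and HTA1 with upper-quartile factors (adjusted p = 0.0563).

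Between 15 and 60 min in galactose the core histone genes fell steeply, all 8 of them, and HTA2-HTB2 and the H4 genes fell the most. HTB2 stood at 2084 and 1718 CPM per kilobase at 15 min and at 456 and 497 at 60 min. Its partner HTA2 went from 3215 and 2692 to 744 and 829. HHF1 went from 1833 and 1657 to 427 and 499.8. For each of these genes the 60 min libraries lay far below the 15 min libraries in both strains, with no overlap. HTB2 fell 3.98-fold (log2 -1.99 ± 0.17, adjusted p = 9.50e-07), HHF1 3.77-fold (log2 -1.92 ± 0.16, adjusted p = 5.49e-07) and HTA2 3.75-fold (log2 -1.91 ± 0.19, adjusted p = 2.38e-06) in edgeR's test. HHF2 fell by 1.66 ± 0.17 on the log2 scale (adjusted p = 4.45e-06). The H3 genes HHT1 and HHT2 fell less, by 1.26 ± 0.17 and 1.14 ± 0.17 (adjusted p = 4.78e-05 and 9.30e-05). Smallest were the falls of HTA1, by 0.79 ± 0.19 (adjusted p = 0.00409), and of HTB1, by 0.84 ± 0.17 (adjusted p = 0.00121).

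Of all genes, 36.5% were called in this step and 16.1% were called lower, against 8 of the 10 histone genes. By fitted difference, HTB2, HHF1 and HTA2 lay at the 0.482, 0.559 and 0.578 percentile of all genes tested, among the strongest falls of the table. The median was -1.20 over the 10 members and 0.00 over all genes. Within single strains, which carry no replicate and no test, 7 members fell at least 2-fold in the wild type and 6 in the deletion, where 4.13% and 3.20% of all genes did so. Leaving out the wild-type 15 min library removed the call of HTA1 (adjusted p = 0.152), and every other call of this step was made in all 14 alternative fits.

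Against glucose, 60 min left the core genes at unequal levels. HTA2 and HTB2 were 2.93-fold and 3.04-fold lower than in glucose, with log2 differences of -1.55 ± 0.18 and -1.60 ± 0.17 and adjusted p of 1.89e-06 and 6.61e-07. Both H4 genes were about as far apart from glucose as each other: HHF1 was lower by 2.12-fold (adjusted p = 1.46e-05) and HHF2 by 2.04-fold (adjusted p = 7.30e-05). HHT1 was lower by less (log2 -0.59 ± 0.17, adjusted p = 0.00691), a call that was lost without the deletion glucose library (adjusted p = 0.101). HTA1 (log2 -0.24, adjusted p = 0.266), HTB1 (log2 -0.31, adjusted p = 0.120) and HHT2 (log2 -0.09, adjusted p = 0.634) did not pass edgeR's test, although HTB1 passed without the deletion 60 min library (log2 -0.47, adjusted p = 0.0251). Thus 5 members were called lower, where 33.9% of all genes were, and 1 member, HHO1, was called higher, where 32.3% were, out of 66.2% called in either direction. A call in this comparison therefore sets no histone gene apart. By fitted difference, the core genes called lower lay between the 9.80 (HTB2) and 27.1 (HHT1) percentile of all genes tested.

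**Figure D2:**
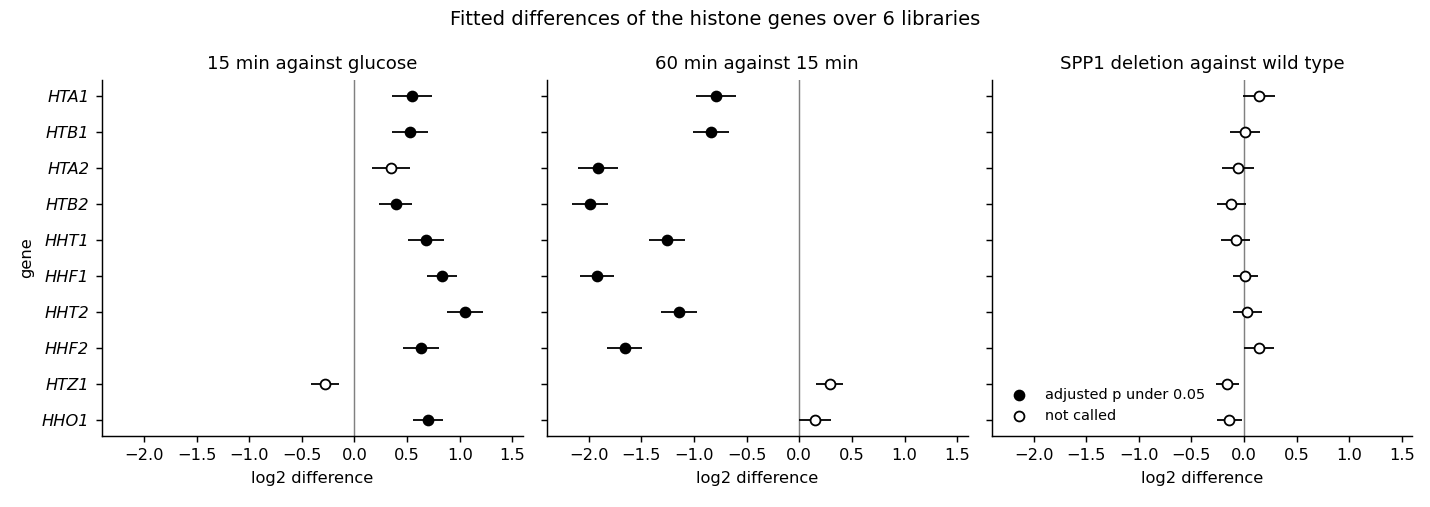
Fitted log2 difference of each histone gene (horizontal axis) for 15 min against glucose, 60 min against 15 min, and the SPP1 deletion against the wild type, over 6 libraries. Points are edgeR estimates, bars the log2 difference divided by the square root of F to either side, and filled points have an adjusted p under 0.05; the falls of HTA2, HTB2 and HHF1 near -1.9 to -2.0 stand apart from those of HTA1 and HTB1, and no point of the strain panel is filled.

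The paralogs of H2A and H2B parted after the shift, while those of H3 and H4 stayed closer. HTA1 gave 53.0% of the H2A counts in wild-type glucose (exact 95% binomial interval 51.7 to 54.4). After 15 min in galactose its share was 56.1% (54.5 to 57.8), and by 60 min it had reached 74.6% (72.5 to 76.6). In the deletion it gave 56.9% (55.9 to 58.0), 60.4% (58.9 to 61.9) and 75.7% (73.6 to 77.8) of them in the same order. HTA1 thus led slightly in glucose in both strains and by far more at 60 min; these intervals cover counting error only. HTB1 gave 48.3%, 50.2% and 69.5% of the H2B counts in the wild type and 49.8%, 52.9% and 71.0% in the deletion. The 60 min values of HTB1 lay above 66.4% even at their lower counting bound, and its glucose values did not exceed 51.3% at the upper bound.

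For H3, HHT1 gave 55.9%, 51.3% and 50.7% of the counts in the wild type and 57.3%, 49.1% and 45.8% in the deletion. HHT1 therefore led slightly in glucose in both strains, and at 60 min the wild type was at parity (interval 48.0 to 53.3) and the deletion below it (42.9 to 48.7). For H4, HHF1 was the lesser gene in all 6 libraries, with between 37.3% and 43.4% of the counts.

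Over the 6 libraries, HTA1 was above HTA2 in 6 of 6, by a mean log2 ratio of 0.79 ± 0.64 (SD, n = 6, exact two-sided sign-flip permutation p = 0.03125). HHF1 was below HHF2 in 6 of 6, with a mean log2 ratio of -0.54 ± 0.16 (SD, n = 6, exact permutation p = 0.03125). HTB1 over HTB2 had a mean log2 ratio of 0.42 ± 0.64 (SD, n = 6, exact permutation p = 0.1875), and HHT1 over HHT2 of 0.10 ± 0.25 (SD, n = 6, exact permutation p = 0.34375). After Benjamini-Hochberg adjustment over the 4 pairs the exact permutation values were 0.0625, 0.0625, 0.25 and 0.344, and none passed 0.05. The smallest p that 6 libraries allow is 0.03125, and the SDs of the H2A and H2B ratios hold the higher ratios of both 60 min libraries. HTA1 over HTA2 and HHF1 over HHF2 were at that smallest p and, with the other pairs as they were, could not have passed after adjustment. The adjusted values therefore decide nothing for them. The 6 libraries are also conditions of the same strains rather than independent replicates.

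**Figure D3:**
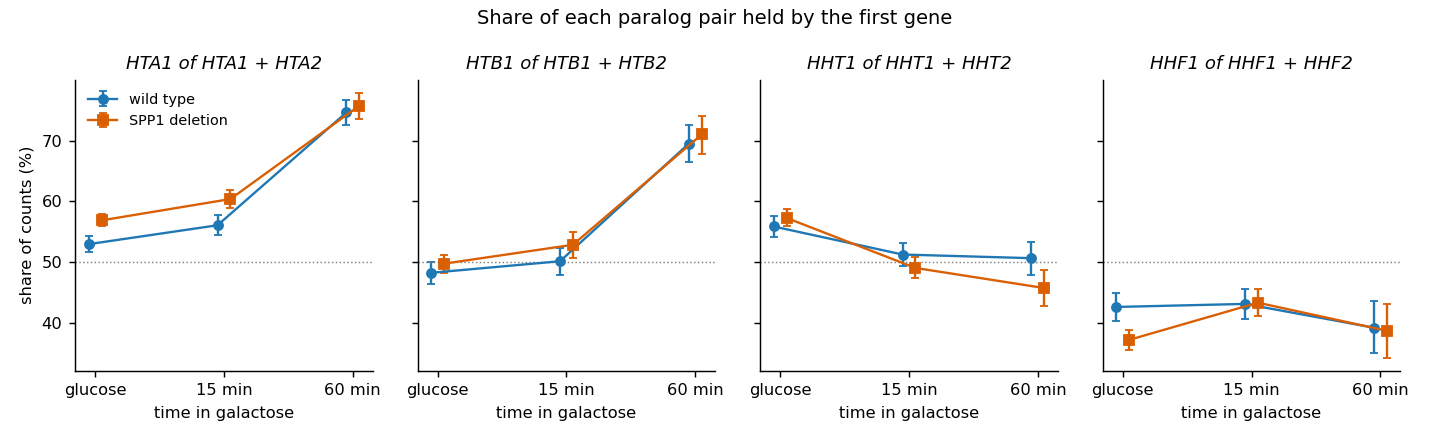
Share of the counts of each paralog pair held by the first-named gene (percent, vertical axis) in glucose and at 15 and 60 min in galactose, at equal spacing; circles are the wild type, squares the SPP1 deletion, bars exact 95% binomial intervals and the dotted line 50%. HTA1 and HTB1 climb to between 69.5% and 75.7% at 60 min in both strains, while HHT1 drifts down and HHF1 stays under 50%.

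Set beside their divergent partners, the H2A-H2B genes and the H3-H4 genes gave different orders of size. From 15 to 60 min, HTA1 and HTB1 differed in their fitted log2 change by 0.05, and HTA2 and HTB2 by 0.09. Across loci the same step separated HTA1 from HTA2 by 1.12 and HTB1 from HTB2 by 1.15. So the H2A and H2B genes of a locus fell together and the copies of a histone did not. The H3 and H4 genes showed the reverse order: the partners HHT1 and HHF1 differed by 0.65 and HHT2 and HHF2 by 0.52, whereas the paralogs HHT1 and HHT2 differed by 0.12 and HHF1 and HHF2 by 0.25. At 15 min against glucose the order was mixed. The partners HHT1 and HHF1 differed by 0.16 and HHT2 and HHF2 by 0.42. The paralogs HHT1 and HHT2 differed by 0.37 and HHF1 and HHF2 by 0.20. At 60 min against glucose these partners differed by 0.50 and 0.94 and these paralogs by 0.49 and 0.05. There HHT1 was about as far from HHF1 as from HHT2, while HHF2 was far closer to HHF1 than to HHT2.

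Each strain gave these sizes by itself. The log2 ratio of HTA1 to HTA2 grew by 1.20 in the wild type (95% counting interval 1.02 to 1.38) and by 1.03 in the deletion (0.85 to 1.22) from 15 to 60 min. That of HTA2 to HTB2 changed by 0.08 (-0.16 to 0.33) and 0.09 (-0.17 to 0.34). The ratio of HHT1 to HHF1 grew by 0.81 (0.55 to 1.06) and 0.50 (0.23 to 0.76), and that of HHT2 to HHF2 by 0.61 (0.38 to 0.84) and 0.42 (0.19 to 0.64). With 1 library per group these differences of differences carry no test.

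**Figure D4:**
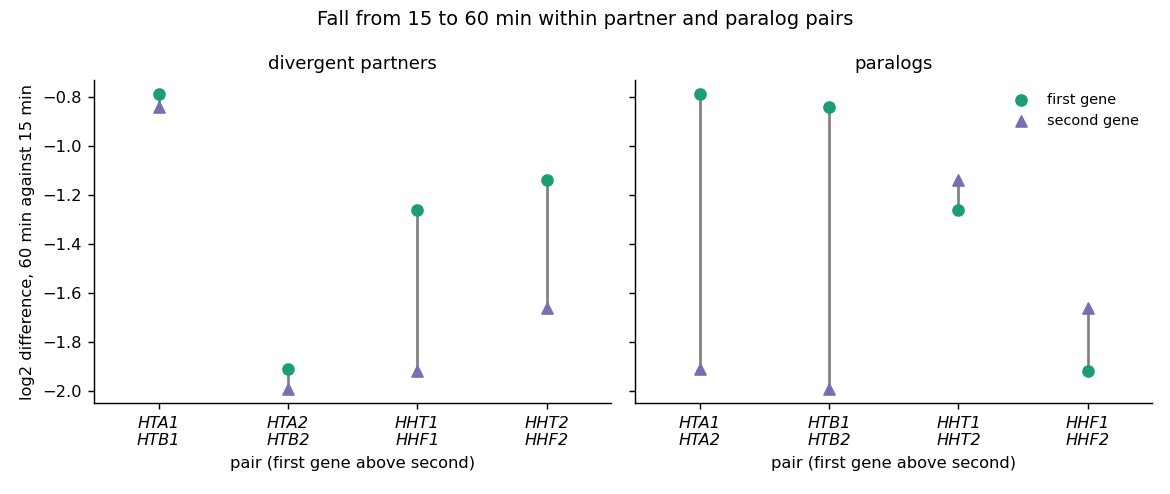
Fitted log2 difference at 60 min against 15 min (vertical axis) for the genes of each divergent partner pair (left) and each paralog pair (right); circles are the first-named gene, triangles the second, and lines join the genes of a pair. The line is short for HTA1-HTB1 (0.05) and HTA2-HTB2 (0.09) and long for the H2A and H2B paralogs (1.12 and 1.15), and the H3-H4 partners are farther apart than the H3 or H4 paralogs.

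Summed over paralogs, H2A stood at 5009 CPM per kilobase in wild-type glucose, 7329 at 15 min and 2930.5 at 60 min, and at 5246, 6797 and 3415 in the deletion. H4 stood at 2289, 4242 and 1088 in the wild type and at 2629, 3816 and 1289 in the deletion. H4 thus had the lowest sum of the 4 core histones in glucose and at 60 min in both strains. In deletion glucose the gap was small, with 2629 for H4 against 2726 for H2B. This ranking also rests on division by coding length, while the windows in which reads were counted are unknown. In glucose and at 15 and 60 min, the ratio of H3 to H4 was 1.26, 1.29 and 2.08 in the wild type and 1.12, 1.32 and 1.79 in the deletion. The ratio of H2A to H2B moved only between 1.69 and 1.99. When the counts of paralogs were summed before the edgeR fit, so that the split of reads between copies has no effect, H2B, H3 and H4 rose at 15 min (log2 0.44, 0.83 and 0.70, adjusted p = 0.0428, 9.95e-04 and 0.00215). H2A did not pass (0.45, adjusted p = 0.0642). Reads dropped, or counted for both copies, would still affect the sums. All 4 fell from 15 to 60 min, with log2 differences of -1.16 for H2A, -1.28 for H2B, -1.20 for H3 and -1.77 for H4 and adjusted p of at most 5.17e-04.

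HTZ1 and HHO1 followed neither course. HTZ1, whose product H2A.Z replaces H2A in nucleosomes beside promoters, stood at 692, 538 and 687 CPM per kilobase in the wild type and at 594, 514 and 602 in the deletion. Its highest library was only 1.35 times its lowest, and it was lowest at 15 min in both strains, when the core genes were highest. The fitted difference was -0.28 ± 0.13 at 15 min against glucose (adjusted p = 0.0595), 0.29 ± 0.13 at 60 min against 15 min (adjusted p = 0.107) and 0.01 ± 0.13 at 60 min against glucose (adjusted p = 0.970) in edgeR's test. The dip at 15 min passed with library totals (adjusted p = 0.0221), with upper-quartile factors (adjusted p = 0.00920) and without an uncertain part of chromosome XI (adjusted p = 0.0481). Its later rise passed with library totals (adjusted p = 0.0167) and upper-quartile factors (adjusted p = 0.0341).

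HHO1 encodes the linker histone H1 of yeast. It stood at 126, 192 and 197 CPM per kilobase in the wild type and at 101, 174 and 208 in the deletion, so that every galactose library lay above both glucose libraries. It rose by 0.70 ± 0.14 on the log2 scale at 15 min (adjusted p = 3.81e-04) and was higher by 0.85 ± 0.14 at 60 min than in glucose (adjusted p = 7.58e-05, same edgeR test). By fitted difference it lay at the 72.7 and 81.1 percentile of all genes tested. Of all genes, 37.1% and 32.3% were called higher in these comparisons, so the calls do not set HHO1 apart. From 15 to 60 min, where all core genes fell, its difference was 0.15 ± 0.15 (adjusted p = 0.462). HHO1 rests on 182 to 319 counts per library.

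Loss of SPP1 made no histone gene pass the test. The comparison asks whether a strain that lacks a COMPASS subunit transcribes the histone genes at another level over all 3 conditions. Of the 10 members, 0 were called by edgeR's quasi-likelihood test, DESeq2 or limma, and 0 had an unadjusted p under 0.05 in edgeR, while 1.83% of all genes were called. Those were 57 higher and 38 lower genes, a split that turned to 58 and 81 with library totals and to 70 and 86 with upper-quartile factors. The fitted differences ran from -0.16 ± 0.11 for HTZ1 (adjusted p = 0.534) to 0.14 ± 0.15 for HTA1 (adjusted p = 0.766) and 0.14 ± 0.14 for HHF2 (adjusted p = 0.727). Their median was -0.03, against 0.00 over all genes. In no single condition did a member differ 2-fold between the strains, where 1.21%, 2.26% and 1.70% of all genes did so in glucose and at 15 and 60 min. These shares, and the 1.83% called, are so low that 0 of 10 members does not set the histone genes apart.

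Within conditions, which have no replicate check, the strain differences were small and varied in sign. In glucose HHF2 was the farthest apart, with 1050 counts in the wild type and 2099 in the larger deletion library (log2 0.33, 95% counting interval 0.22 to 0.44), and HHO1 was lower in the deletion by 0.32 on the log2 scale (-0.57 to -0.08). The share of HHF1 among H4 counts was 42.7% in wild-type glucose (40.4 to 45.0) and 37.3% in deletion glucose (35.6 to 38.9). At 15 min all 10 members lay at or below the wild type, with a median of -0.15, and at 60 min 8 of 10 lay above it, with a median of 0.16. Over all genes tested the median was -0.00 at both times. With 1 library on each side, these counts of members by sign carry no test. The change from 15 to 60 min was shallower in the deletion for HTA2, at -1.70 (-1.86 to -1.54) against -2.11 (-2.26 to -1.96) in the wild type. HTB1 showed the same order, with -0.66 (-0.81 to -0.52) against -1.01 (-1.16 to -0.87). HHT1 hardly differed, with -1.23 (-1.38 to -1.09) against -1.29 (-1.42 to -1.16). The intervals of the strains also overlapped for HHT2 and HHF1, but not for HTA1 and HHF2. For HTB2 they met at -2.00 as rounded, with -1.78 (-2.00 to -1.59) in the deletion against -2.19 (-2.39 to -2.00) in the wild type. These differences in response could not be tested with 1 library per group.

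Genes that act on histone promoters were mostly lower at 15 min. Of 11 measured members of a list of 12, 7 fell against glucose, 0 rose and 4 did not pass, where 38.1% of all genes fell and 37.1% rose. Their median log2 difference was -0.46, against -0.01 over all genes. SPT21, the activator's partner, went from 204 and 308 counts in glucose to 30 and 35 at 15 min (log2 -1.73 ± 0.20, adjusted p = 1.27e-06) and rose again by 1.13 ± 0.23 by 60 min (adjusted p = 0.00140, edgeR). Both steps ran against those of the core histone genes, while at 60 min SPT21 was still below glucose (log2 -0.60 ± 0.18, adjusted p = 0.00722), as 5 of the 8 core genes were. Of the 4 genes of the HIR complex, HIR1 fell by 1.02 ± 0.18, HIR3 by 0.74 ± 0.16 and HPC2 by 0.46 ± 0.16 (adjusted p = 8.17e-05, 6.18e-04 and 0.0151), while HIR2 did not pass (log2 -0.03, adjusted p = 0.856). In the same comparison the histone chaperone gene RTT106, whose product also acts at these promoters, fell by 0.63 ± 0.15 (adjusted p = 0.00136). From 15 to 60 min 2 of the 11 rose, SPT21 and the H3-H4 chaperone gene ASF1 (0.52, adjusted p = 0.0233), the latter named after its value was seen, and 0 fell in edgeR's test. In that step 20.4% of all genes rose and 16.1% fell, so the count of risers does not set the list apart. None of the 11 passed the strain test.

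Among 15 genes of histone chaperones, importers and acetyltransferases, 6 fell and 3 rose at 15 min, shares close to or below the 38.1% and 37.1% of all genes, so the counts do not set the list apart. Subunits of CAF-1, which places new H3-H4 behind the replication fork, were among those that fell: RLF2 by 1.54 ± 0.18 and CAC2 by 1.72 ± 0.22 on the log2 scale (adjusted p = 1.47e-06 and 2.87e-06). HIF1, which binds H3-H4 in the nucleus, fell by 2.02 ± 0.21 (adjusted p = 3.09e-07). The importin gene KAP123, which carries histones and ribosomal proteins into the nucleus, went from 799 and 1254 counts to 11 and 37 (log2 -4.19 ± 0.22, adjusted p = 9.51e-11, edgeR). The risers, named after their values were seen, were the H2A.Z chaperone gene CHZ1 (0.87), the importin gene KAP114 (0.52) and HAT2 (0.49). Of 13 genes of the SWR1 complex, which places H2A.Z in nucleosomes, 5 rose and 4 fell at 15 min, with a median of 0.12, again close to the shares over all genes. BDF1 rose by 0.75 ± 0.15 (adjusted p = 3.49e-04), and SWC7, RVB1 and SWC3 fell by 1.87, 1.75 and 0.99. In both lists 0 members passed the strain test.

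G1/S and G2/M genes mostly moved against the core histone genes at both steps, whereas M/G1 genes mostly fell at the first and mostly did not pass the test at the second. Of 16 G1/S and replication genes, 14 fell at 15 min and 1 rose, where 38.1% and 37.1% of all genes did so, with a median log2 difference of -1.75 (all genes -0.01). From 15 to 60 min 13 rose and 0 fell, with a median of 1.18, where 20.4% of all genes rose. At 60 min against glucose the list was on the same side as the core histone genes, with 9 of 16 lower, 2 higher and a median of -0.67, against a core median of -0.81. For all genes these shares were 33.9% lower and 32.3% higher. RNR1, which encodes the large subunit of ribonucleotide reductase, went from 1237 and 1947 counts in glucose to 19 and 35 at 15 min and 436 and 169 at 60 min. The G1 cyclin gene CLN2 went from 628 and 617 to 19 and 15, then to 156 and 112. For both genes the 15 min libraries were the lowest in each strain, at the time when the core histone genes were highest. The log2 differences at 15 min were -4.63 ± 0.27 for RNR1, -3.97 ± 0.22 for CLN2, -3.12 ± 0.35 for the S-phase cyclin gene CLB6 and -2.17 ± 0.26 for POL1, the catalytic subunit of DNA polymerase alpha (adjusted p of at most 1.36e-06, edgeR). The exception that rose was RFA1 (0.75, adjusted p = 2.39e-04), a single-stranded DNA binding protein gene, named after its value was seen.

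The summed level of these 16 genes was 1786, 452 and 1329.7 CPM in the wild type and 1677, 511 and 1039 in the deletion, in glucose and at 15 and 60 min. The 8 core histone genes summed to 5073, 8157 and 3032 CPM and to 5204, 7424 and 3394. All 7 measured G2/M genes fell at 15 min (median -1.78) and all 7 rose from 15 to 60 min (median 1.31), among them the mitotic cyclin genes CLB1 (-2.21, then 2.13) and CLB2 (-2.49, then 1.92), the polo kinase gene CDC5 (-1.82, then 1.31) and CDC20 (-1.78, then 1.33). Over all genes, 38.1% fell at 15 min and 20.4% rose from 15 to 60 min. Of 8 M/G1 genes 7 fell at 15 min, with a median of -0.81, among them PCL9 (-0.96) and DSE2 (-0.94), and 1 rose, SIC1, which was named after its value was seen. From 15 to 60 min 2 of the 8 rose, CDC6 by 1.89 and ASH1 by 0.90, and 6 did not pass, with a median of 0.12. That count is close to the 20.4% over all genes and does not set the list apart. CDC6, a replication licensing gene, was the only gene of the cell cycle lists that passed the strain test (log2 -0.75 ± 0.14, adjusted p = 0.00777). The distribution of cells over the cycle was not measured in these libraries, and its part in the histone changes was not tested. In a culture, fewer cells that transcribe a gene and less transcription per cell cannot be told apart.

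**Figure D5:**
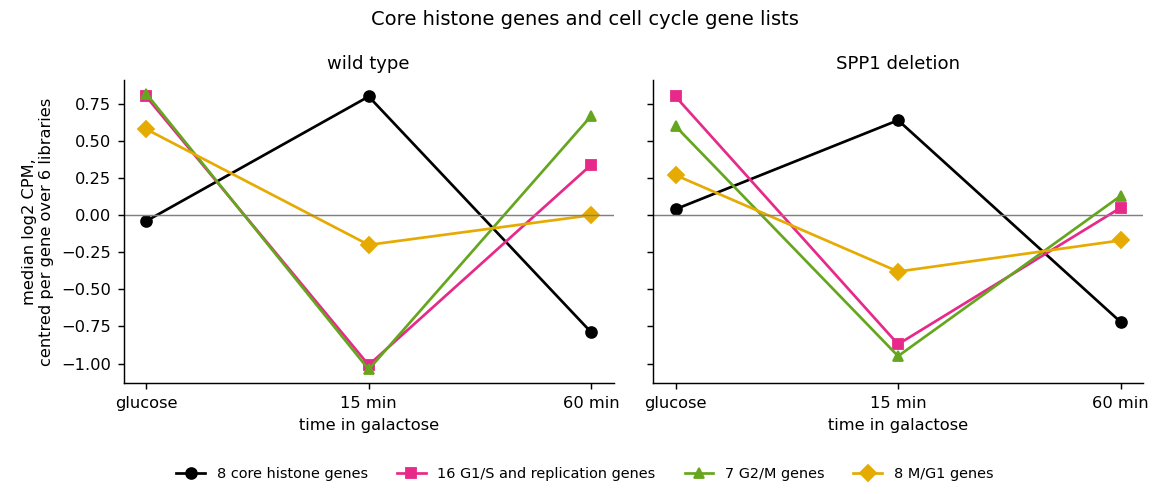
Median log2 CPM, centred per gene over the 6 libraries (vertical axis), of the 8 core histone genes and of 3 cell cycle gene lists in glucose and at 15 and 60 min in galactose, at equal spacing, in the wild type (left) and the SPP1 deletion (right). The core histone median is highest at 15 min (0.80 and 0.64) and lowest at 60 min (-0.79 and -0.72), while the G1/S and G2/M medians are lowest at 15 min.

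Some genes that are no histone genes had a course as near to the core histone mean as core genes had. Likeness was measured as the root-mean-square difference of centred log2 CPM from the mean course of the 8 core genes over the 6 libraries, among 4593 other genes with a mean of at least 50 CPM. The core genes themselves lay between 0.126 (HHT1) and 0.337 (HTB2) from their mean, HTZ1 at 0.715 and HHO1 at 0.770. Each core gene is part of that mean, which lowers its distance, while the other genes are not. The nearest other gene was ROX1, the repressor of hypoxic genes, at 0.176, with 367, 237 and 109 counts in the wild type and 453, 371 and 100 in the deletion. ROX1 was nearer than every core gene except HHT1 and HHF2 (0.136). ROX1 was followed by YMR265C (0.208), PRY2, a secreted sterol-binding protein gene (0.228), the aldehyde reductase gene ARI1 (0.230) and the ferric reductase gene FRE4 (0.231). In all, 24 genes lay nearer than HTB2. PRY2 lies on chromosome XI in a stretch of 147 tested genes from MTC2 to the right end, where W-strand genes had a lower median level than C-strand genes (log2 difference -1.35) and single values are uncertain. No histone gene lies there, while NAP1 of the chaperone list and PRI2 of the replication list do.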

How the data were processed

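The 6 libraries were compared from 1 table of read counts per gene, which the authors deposited as whole numbers with no normalization. The submitters' processing notes name Bowtie (version not given) and sacCer3; the counting tool, the strand setting and the gene windows, not given in the sources used here, stay unknown. Of 5219 identifiers, 5116 matched the R64 gene table used for names and positions; 3 lines of the table were emptied for this work. Genes with a mean count of at least 10 (5186) were fitted with edgeR 4.0.16 in R 4.3.3 (quasi-likelihood test, TMM factors 0.9397 to 1.063, strain and condition as additive terms, 2 residual degrees of freedom, Benjamini-Hochberg threshold 0.05). For the time comparisons the strains stand in for replicates, and for the strain comparison the conditions do, so p-values measure variation between these libraries. That variation is the part not shared by the strains across conditions, not variation between repeat cultures. The fit also borrowed information from other genes, worth 13 prior degrees of freedom. The deposited counts gave single-library differences, as log2 CPM after adding a prior count of 2, 2-fold as the threshold and exact 95% binomial counting intervals; changes of log2 ratios used a normal approximation and a pseudocount of 0.5. In simulated counts of 5186 genes the fit recovered 57% of 1.5-fold and 92% of 2-fold changes at 15 min against glucose, 48% and 96% at 60 min, and 72% and 99% between strains. False calls were 6, 3 and 8. The simulation gave every gene the common dispersion (0.00979) and changed 100 genes by each fold, whereas 75.2% of genes were called at 15 min. Recovery for the histone genes in the real counts was not tested and may be lower. Named genes were the 10 members, up to 4 genes of each other list with the largest change at 15 min, any list gene that passed the strain test, and the 5 genes nearest in course to the core histones. Members and lists were chosen with earlier results of these data known. Alternatives were RLE, upper-quartile or no scaling factors, no filter, DESeq2 1.42.0, limma 3.58.1, a threshold of 0.01, summed paralogs and leaving out each library; a fit without part of chromosome XI was chosen after seeing the data. Some genes of the lists, among them YTA7, CSE4, BUD4, BAR1 and MF(ALPHA)1, were not analysed here. Figures were drawn with matplotlib 3.10.9.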

Additional observations from a re-analysis of the deposited data

How the results depend on the processing

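The count of histone genes called at 15 min against glucose was 8 and lay between 4 and 9 when each library was left out in turn, between 5 and 7 at 60 min against glucose (6 in the fit to all libraries), between 7 and 8 at 60 min against 15 min (8), and at 0 throughout for the strains. Summing paralogs, which leaves 6 rows in place of 10, gave 5 calls at 15 min against glucose (HTZ1 then lower) and 4 at 60 min against 15 min. Other alternatives kept these counts within 1.5 times. Among the 560 single histone differences refitted, 21 lost and 8 gained a call and 0 changed direction past the threshold; the cause was not tested. Upper-quartile factors moved the median of all genes to -0.14 at 15 min against glucose, and library totals moved it to 0.15 at 60 min against 15 min, where 1436 genes were then higher and 547 lower in place of 1056 and 835; with upper-quartile factors these were 1295 and 650. Left-out libraries moved the mean paralog log2 ratios between 0.62 and 0.91 for HTA1 over HTA2, 0.25 and 0.53 for HTB1 over HTB2, 0.03 and 0.17 for HHT1 over HHT2, and -0.57 and -0.50 for HHF1 over HHF2, with 5 libraries allowing no exact p under 0.0625. No paired analysis was possible because each strain and condition has 1 library; the additive fit already sets the strains side by side within each condition. The strain test called 38 of all genes higher and 12 lower in DESeq2 and 34 and 13 in limma, against 57 and 38 in edgeR; these counts reached 107 and 88 without the wild-type 15 min library, with 0 histone genes called in each.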
